A study of Mus musculus with 6 samples.

Results

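The cholesterol synthesis and SREBP-2 circuit was followed through 27 genes in the livers of 6 mice. The genes were chosen by symbol for their place in the pathway, and all 27 were found among the 14002 genes of the deposited tables. They comprise 4 regulators of SREBP-2 (Srebf2, Scap, Insig1, Insig2), 19 enzymes in pathway order from Acat2 to Dhcr7, and 4 genes of sterol transport, esterification and receptor turnover (Stard4, Mylip, Soat1, Soat2). The tested mice were 3 LKO animals, labelled as hepatocyte knockouts of the microRNA genes let-7b and let-7c-2 (let7b/c2), and they were set against 3 wild type animals. All 6 were C57BL/6, were labelled as 8 weeks old and had eaten a 60% high-fat diet for 8 weeks, so the diet is shared by both groups. Since the labelled age equals the time on the diet, it may be the age at the start of the diet. The age at collection is therefore uncertain. The sources used here do not give the driver of the knockout, the sex of the mice or their feeding state at collection. RNA came from whole liver, so every cell type of the organ contributes, and nothing in the labels says whether the mice shared litters or days. The p-values set the difference between the groups against the spread between livers within a group, and they treat the 6 livers as independent.

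SREBP-2, the product of Srebf2, is made as an inactive precursor in the endoplasmic reticulum, where it is bound to the sterol sensor SCAP. When membrane cholesterol is plentiful, INSIG proteins hold SCAP in place. When it is scarce, SCAP carries SREBP-2 to the Golgi, where proteases release a fragment that enters the nucleus and switches on the enzymes of cholesterol synthesis. The enzyme genes are known to rise and fall together, and the liver is a main site of the pathway. The let-7 microRNAs repress messenger RNAs through short sites that pair with their seed, bases 2 to 8.

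The mature strands of the deleted genes show what a target site must match, and were taken from RefSeq on GRCm38.p6, with the seed in capitals. The mature sequence of let-7b lies on the plus strand at chr15:85707325-85707346 and that of let-7c-2 at chr15:85706616-85706637.
mmu-let-7b-5p: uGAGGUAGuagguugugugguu
mmu-let-7c-5p: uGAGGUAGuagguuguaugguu
The 2 strands share the seed GAGGUAG. Mirlet7c-1 on chromosome 16, which is not part of this knockout, encodes the same mature let-7c.

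Matches to this seed were about as frequent among the members as among all tested genes. Of 27 members, 4 held a match of at least 7 bases (CTACCTC or TACCTCA) in their longest 3′ untranslated region in GENCODE M21, 14.8% of members, against 17% of 10677 tested genes with such a region. The sites lay in Srebf2 and Soat2 on chromosome 15 and in the reductase gene Lbr and the acyltransferase gene Soat1 on chromosome 1. They are written as DNA with the matching bases in capitals and begin, counted from the first base of the region, at base 918 in Srebf2, 705 in Lbr, 3731 and 4666 in Soat1 and 78 in Soat2.
Srebf2: caccctcactcCTACCTCccatagaagtgt
Lbr: atttggctttgCTACCTCAatttgcaggtg
Soat1, first site: ttgtcagcttgtTACCTCAacctatgggtg
Soat1, second site: agtctggattgCTACCTCttaaaaactgca
Soat2: agggttcctcaCTACCTCAtttggagtcag
The signal of these 4 genes moved in both directions: Lbr and Soat1 had positive log2 fold changes, and Srebf2 and Soat2 had negative ones, none of which passed the test described below. None of the 7 mevalonate and isoprenoid genes and none of the 3 squalene and lanosterol genes held a match. A match is a string of letters, and nothing is drawn from its presence or absence about pairing.

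The promoters of the circuit shared another feature. RefSeq promoters of 300 bases (250 before and 50 after the start site, GRCm38.p6) were at hand for 22 of the 27 members, and not for Fdps, Fdft1, Sqle, Stard4 and Soat2. The letters CCAAT, on either strand, are the box of the factor NF-Y, a known partner of SREBP proteins. They occurred in 20 of 28 member promoters, 71.4%, against 37.6% of 11075 promoters of tested genes. The Sp1 box GGGCGG occurred in 85.7% of member promoters and 62.1% of all. The SREBP site TCACCCCAC occurred in 1 member promoter, that of Hmgcs1, and in 0.659% of all promoters. With a free middle letter, TCACNCCAC, that number of members did not change, and 1.23% of all promoters held it. The shorter core CACNCCAC occurred in the promoters of Insig1, Acat2 and Hmgcs1 and in 6.28% of all. Every match to the longer forms is also a match to the shorter one. The following windows of 30 bases show the SREBP site of Hmgcs1 and NF-Y boxes of a mevalonate gene and 3 late-step genes, each read on the strand of its gene with the motif in capitals.
Hmgcs1, SREBP site, chr13:119690204-119690233, plus strand: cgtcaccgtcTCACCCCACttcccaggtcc
Mvd, NF-Y box, chr8:122443432-122443461, minus strand: ccggccagcgggCCAATcatatggcagcgc
Cyp51, NF-Y box, chr5:4104709-4104738, minus strand: cgctgtccgccaCCAATctggtcctgagat
Msmo1, NF-Y box, chr8:64733616-64733645, minus strand: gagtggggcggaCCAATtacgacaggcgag
Dhcr7, NF-Y box, chr7:143830117-143830146, plus strand: tcactgccttcaCCAATcacaggacgcagc
These are descriptions of letters, and binding of SREBP-2, Sp1 or NF-Y was not measured.

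Values are the deposited expression signal, which behaves as an estimated read count times 1 factor per library and is not divided by gene length. Estimated reads were 8636681 to 10764825 per LKO library and 8549483 to 10398390 per wild type library. Tests were run with limma on log2(signal + 1) over 11168 genes with a mean signal of at least 1, p-values were adjusted over all of them (Benjamini-Hochberg), and a gene with an adjusted p under 0.05 is called. A log2 fold change is LKO minus wild type on that scale, which understates changes and spreads of low genes. Of 8 markers of Kupffer cells and macrophages 4 were called raised, none was at 0, and their summed signal was 132.2 to 184.4 in LKO and 83.0 to 94.8 in wild type. In whole liver, more cells of a type and more RNA per cell cannot be told apart. Hepatocyte markers summed to 126291 to 192970.1 in LKO and 130013.6 to 161752 in wild type, and none of 6 was called. All 6 markers of sinusoidal endothelium had positive log2 fold changes (median 0.35), and their summed signal was 104.7 to 129.9 in LKO and 86.9 to 103.0 in wild type, without overlap. None of them, of the 6 stellate cell markers or of the 2 tested cholangiocyte markers was called. Of lymphocyte and neutrophil markers none reached a mean signal of 1.

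No gene of the circuit was called between LKO and wild type livers. Of 27 members 0 were raised and 0 were lowered by limma, where 1.82% of all 11168 tested genes were raised and 1.69% lowered, and limma-voom on estimated reads also called 0. Log2 fold changes were positive in 17 members and negative in 10, with a median of 0.27, against a median of -0.002 over all tested genes. At an unadjusted p under 0.05, 8 members were higher in LKO (Scap, Sqle, Soat1, Cyp51, Nsdhl, Dhcr7, Stard4 and Fdps) and 0 were lower, where 9.58% of all tested genes were higher and 8.86% lower. The values of all LKO mice lay above those of all wild type mice in 5 members (Scap, Sqle, Cyp51, Stard4, Soat1) and below them in 1 (Soat2), against 12.2% of tested genes above and 11.9% below, or 24.2% either way. With libraries scaled by their size alone Stard4 was no longer among them. Counted either way, members without overlap were about as frequent as such genes among all tested genes. Absence of overlap therefore does not set the circuit apart. The count of called members depended on single livers and on the model. Without the mean-variance trend Soat1 was called raised. Without wild type replicate 2, 4 members were called raised (Sqle, Cyp51, Nsdhl and Dhcr7). Without LKO replicate 1 Scap was called raised, and without wild type replicate 1 Hmgcs1 was called lowered. The plot of fold changes in pathway order shows how wide the intervals are.

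**Figure D1:**
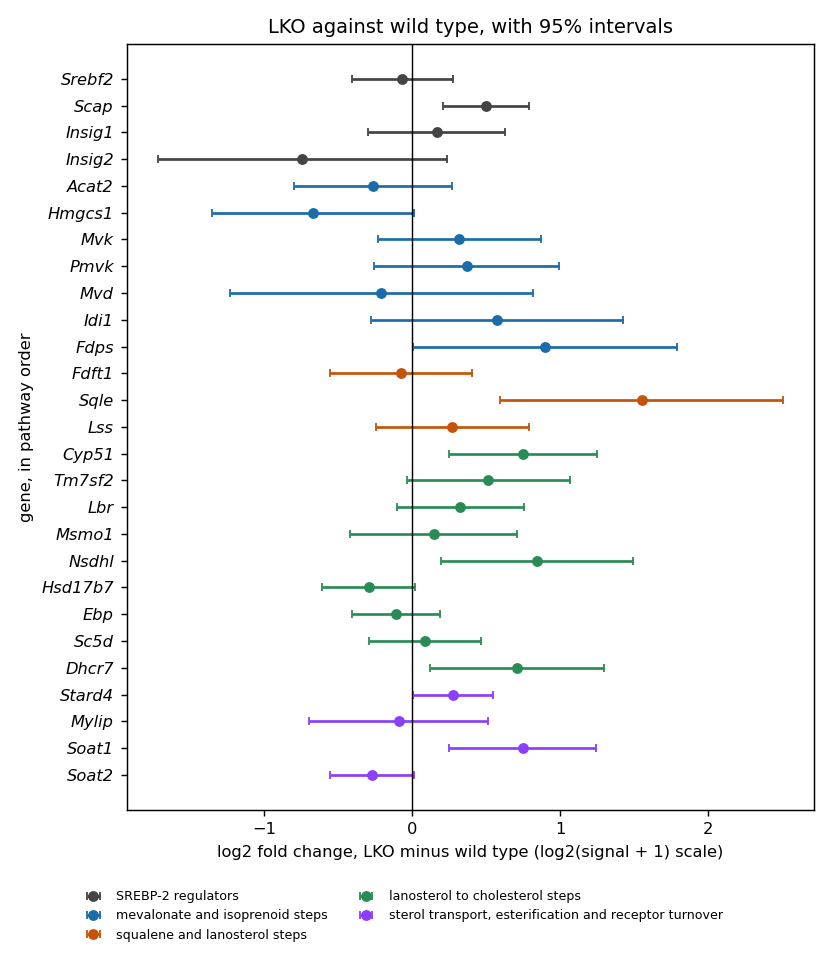
Log2 fold changes of the 27 genes in pathway order (x axis, LKO minus wild type on the log2(signal + 1) scale), with 95% intervals from limma as bars and colours for the role of the gene. Sqle has the highest value at 1.55, Insig2 the lowest at -0.74, and most intervals cross 0.

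Among the regulators, the escort Scap had higher values in LKO while its cargo Srebf2 had similar ones. Scap (chr9:110333288-110384950 in GENCODE M21) had a signal of 138.5, 165.5 and 172.1 in the 3 LKO livers, against 100.4, 127.4 and 108.2 in the 3 wild type livers. The groups did not overlap. Its log2 fold change was 0.50 (SE 0.13) with a 95% interval of 0.21 to 0.79 and an adjusted p in limma of 0.0718, so Scap was not called. Its adjusted p ran from 0.039 without LKO replicate 1 to 0.228 over the fits that leave out a library. Srebf2 (chr15:82147181-82205379) had 55.1, 47.3 and 63.4 in LKO, against 47.7, 65.35 and 61.1 in wild type. The groups overlapped, with a log2 fold change of -0.07 and an interval of -0.41 to 0.28. Per kilobase of its longest coding transcript, Scap had a mean signal of 37.6 in LKO and 26.5 in wild type, and Srebf2 had 10.9 in LKO and 11.4 in wild type.

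The INSIG genes, which encode the retention proteins, did not follow each other across the livers. Insig1, itself a target of SREBP-2, had a signal of 252.1, 255.3 and 195.5 in LKO, against 187.0, 293.7 and 161.5 in wild type. Wild type replicate 2 was the highest of all 6 livers. The log2 fold change of Insig1 was 0.17 (SE 0.21), with an interval of -0.30 to 0.63. Insig2, the form that is not induced by SREBP-2, had 134.8, 104.8 and 218.9 in LKO, against 130.7, 211.6 and 526.5 in wild type. Here wild type replicate 3 stood far above the rest, and the other wild type livers lay within the LKO range. The log2 fold change of Insig2 was -0.74 with an interval of -1.72 to 0.23, and -0.19 without wild type replicate 3. Per kilobase, Insig1 had 86.9 in LKO and 79.4 in wild type, and Insig2 had 56.7 in LKO and 107.4 in wild type. The plot of single livers for 8 genes shows these patterns side by side.

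**Figure D2:**
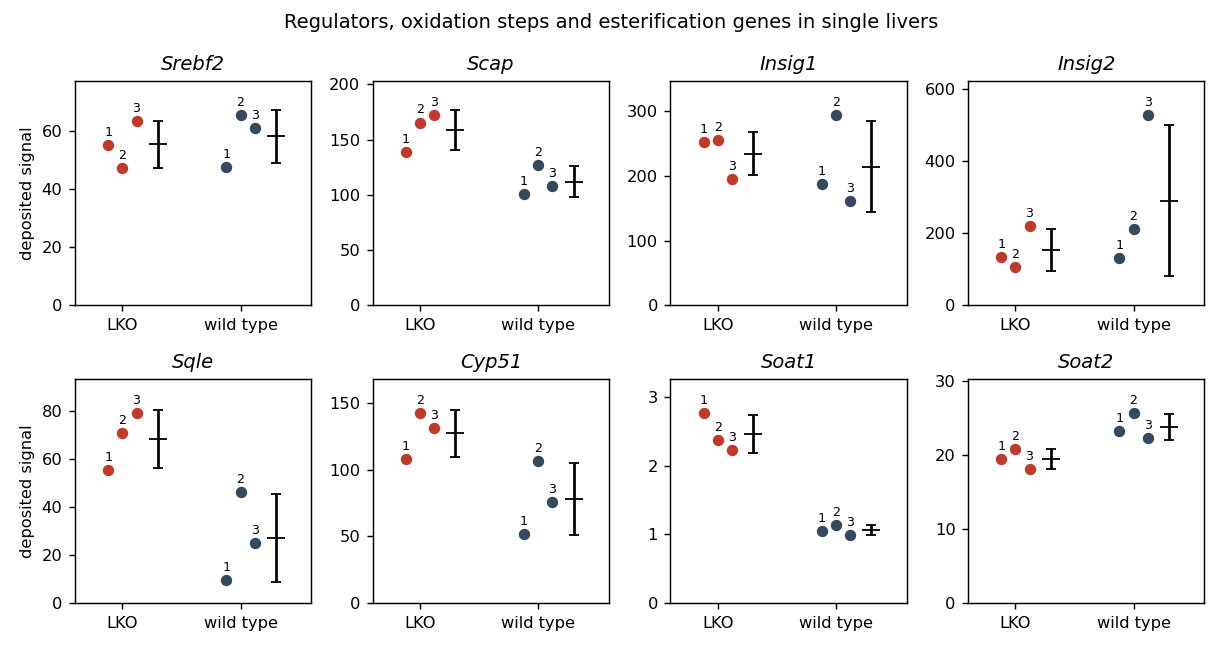
Deposited signal (y axis, from 0) of the regulators Srebf2, Scap, Insig1 and Insig2, the oxidation-step genes Sqle and Cyp51 and the esterification genes Soat1 and Soat2 in LKO and wild type livers, with replicate numbers at the points and mean ± SD as bars. The groups do not overlap for Scap, Sqle, Cyp51, Soat1 and Soat2, and wild type replicate 3 is alone at 526.5 for Insig2.

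The first steps build HMG-CoA, convert it to mevalonate and then make isoprenoid units. Acat2, the cytosolic thiolase that joins acetyl-CoA units, had a signal of 65.3, 66.9 and 85.6 in LKO, against 64.3, 133.7 and 75.4 in wild type. Hmgcs1, the cytosolic HMG-CoA synthase, had 73.7, 67.4 and 104.9 in LKO, against 73.4, 152.7 and 189.5 in wild type. It was the only enzyme of 19 whose highest wild type value was not in replicate 2, and, as for Insig2, that value was in replicate 3. Hmgcs1 had a log2 fold change of -0.67 (SE 0.31), with an interval of -1.35 to 0.01 and an adjusted p of 0.282 in limma. Without wild type replicate 1, whose value lay within the LKO range, it was -1.07, with an adjusted p of 0.0328, and without wild type replicate 3 it was -0.39, with an adjusted p of 0.542.

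Mevalonate is then phosphorylated and decarboxylated. Mvk, mevalonate kinase, had a signal of 15.4, 13.55 and 16.8 in LKO, against 8.20, 18.4 and 11.3 in wild type. Pmvk, the next kinase, had 33.6, 41.5 and 62.6 in LKO, against 25.5, 52.6 and 29.6 in wild type. Mvd, the decarboxylase, had 10.02, 6.10 and 13.9 in LKO, against 4.82, 23.8 and 11.5 in wild type. In all 3 genes the wild type values enclosed those of at least 2 LKO livers. The wild type values of Mvd rested on 37, 189 and 104 estimated reads and spanned a ratio of 4.95 from the lowest to the highest mouse. The log2 fold change of Mvd was -0.21 (SE 0.46), with an interval of -1.23 to 0.82 and an adjusted p of 0.858 in limma, and it was 0.31 without wild type replicate 2 and -0.74 without wild type replicate 1.

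Idi1, which isomerises the isoprenoid unit, had a signal of 70.2, 84.4 and 135.9 in LKO, against 32.75, 110.5 and 65.7 in wild type. Fdps, farnesyl diphosphate synthase, had 230.5, 279.9 and 499.5 in LKO, against 102.9, 333.6 and 143.3 in wild type. In both genes LKO replicate 3 was the highest of all livers, wild type replicate 1 the lowest and wild type replicate 2 the second highest. Idi1 had a log2 fold change of 0.58 (SE 0.38), with an interval of -0.27 to 1.43 and an adjusted p of 0.464 in limma, and of 0.12 without wild type replicate 1. The log2 fold change of Fdps was 0.90 (SE 0.40), with an interval of 0.0075 to 1.79 and an adjusted p of 0.268 in limma. In all 7 genes from Acat2 to Fdps, replicate 1 was the lowest wild type liver and replicate 3 the highest LKO liver.

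Farnesyl diphosphate is next joined to squalene, oxidised and closed to lanosterol, and of these steps the oxidation differed most between the groups. Fdft1, squalene synthase, had a signal of 94.5, 78.9 and 74.5 in LKO, against 67.0, 127.6 and 76.0 in wild type. Sqle (chr15:59315077-59331192), the squalene epoxidase and a control point of the pathway, had 55.4, 70.7 and 79.2 in LKO, against 9.51, 46.05 and 25.1 in wild type. Every LKO value exceeded every wild type value, and the mean was 68.4 ± 12.1 in LKO and 26.9 ± 18.3 in wild type (SD, n = 3 each), a ratio of means of 2.55. Its log2 fold change of 1.55 (SE 0.43) was the largest of the 27 members, with an interval of 0.59 to 2.51. The adjusted p was 0.0861 in limma, so Sqle was not called. Without wild type replicate 2 the log2 fold change was 2.05 and the adjusted p 0.0284, and without wild type replicate 1 the log2 fold change was 0.97. Over the limma fits that leave out a library, the adjusted p of Sqle ran from 0.0284 to 0.234. Lss, lanosterol synthase, had 47.6, 50.6 and 60.9 in LKO, against 34.6, 66.9 and 35.5 in wild type.

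The steps after lanosterol remove methyl groups, shift a double bond and reduce others. Cyp51, the sterol demethylase of the cytochrome P450 family, had a signal of 108.4, 142.9 and 131.6 in LKO, against 52.1, 106.7 and 75.9 in wild type. The groups did not overlap, although the lowest LKO value exceeded the highest wild type value by little. Its log2 fold change was 0.75 (SE 0.22), with an interval of 0.25 to 1.25 and an adjusted p of 0.109 in limma, or 0.0417 without wild type replicate 2. Without wild type replicate 1 the log2 fold change of Cyp51 was 0.49, with an adjusted p of 0.231. Nsdhl, a sterol dehydrogenase of the demethylation complex, had 58.3, 76.5 and 96.5 in LKO, against 30.2, 70.1 and 34.03 in wild type. Dhcr7, which completes one route to cholesterol, had 113.4, 121.5 and 152.5 in LKO, against 64.85, 128.1 and 56.9 in wild type. For both genes only wild type replicate 2 reached the LKO range. Nsdhl had a log2 fold change of 0.84 (SE 0.29), with an interval of 0.19 to 1.49 and an adjusted p of 0.157 in limma, against 1.21 (adjusted p 0.0285) without wild type replicate 2 and 0.62 (adjusted p 0.363) without wild type replicate 1. Dhcr7 had 0.71 (SE 0.26), with an interval of 0.12 to 1.296 and an adjusted p of 0.185, against 1.06 (adjusted p 0.018) without wild type replicate 2 and 0.49 (adjusted p 0.384) without wild type replicate 3.

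Tm7sf2 and Lbr encode sterol reductases that act on the same intermediate. Tm7sf2 had a signal of 124.5, 156.8 and 226.7 in LKO, against 89.4, 160.7 and 104.7 in wild type. Lbr, which also serves as a lamin B receptor in the nuclear envelope, had 8.36, 12.1 and 10.03 in LKO, against 8.46, 8.94 and 6.30 in wild type. Per kilobase, Tm7sf2 had 113 in LKO and 78.97 in wild type, and Lbr had 2.89 in LKO and 2.25 in wild type. Neither passed the test, with adjusted p-values of 0.302 and 0.408 in limma.

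Msmo1, the sterol methyl oxidase, had a signal of 66.4 to 102.5 in LKO and 61.1 to 119.7 in wild type. The groups also overlapped in the remaining late enzymes. Hsd17b7, a ketoreductase, had a log2 fold change of -0.29 with an interval of -0.61 to 0.02. Ebp, the double-bond isomerase, had -0.11 with an interval of -0.40 to 0.19, and Sc5d, the desaturase, had 0.09 with an interval of -0.29 to 0.47. Sc5d is an example of the unequal spread: its values were 244.9, 270.5 and 269.6 in LKO, against 240.8, 322.0 and 191.9 in wild type. By steps, the median log2 fold change was 0.32 over the 7 mevalonate and isoprenoid genes, 0.27 over the 3 squalene and lanosterol genes and 0.32 over the 9 later genes. Each group held both positive and negative values: 4 positive and 3 negative, 2 and 1, and 7 and 2, in that order. An order along the pathway was not tested.

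**Figure D3:**
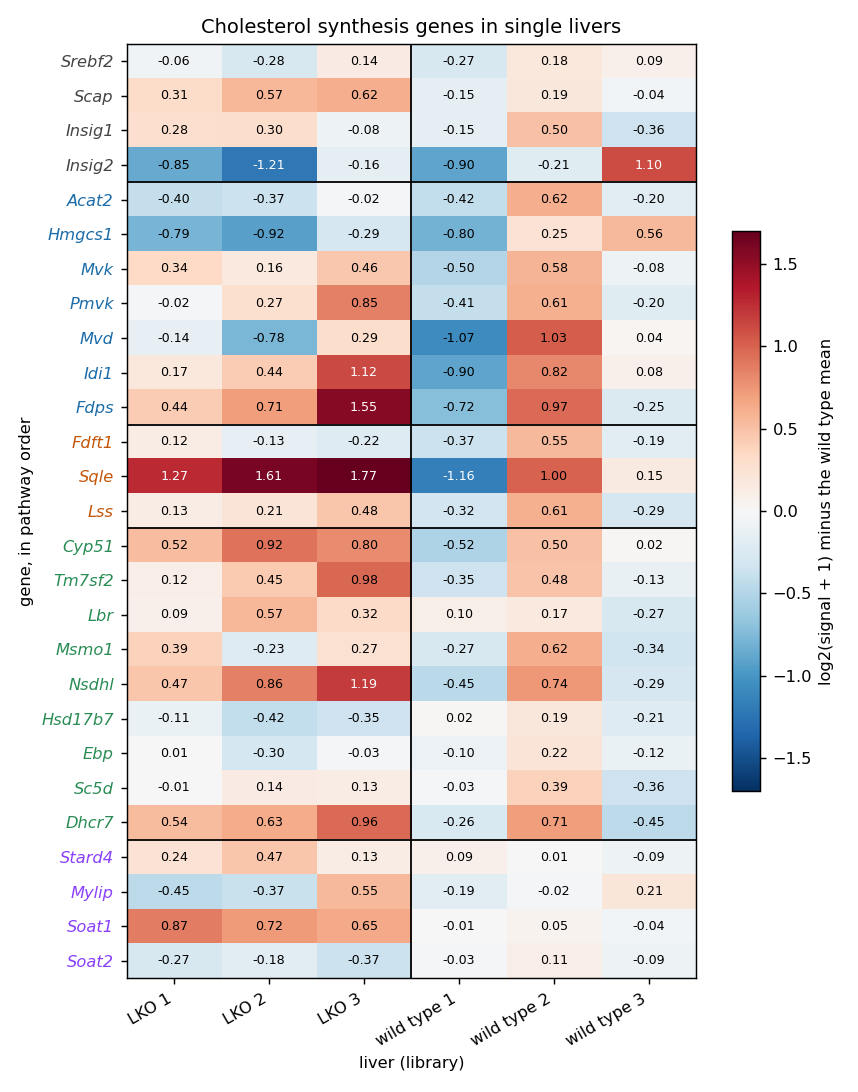
Difference of log2(signal + 1) from the wild type mean of each gene (colour and printed value) for 27 genes in pathway order (rows) and 6 livers (columns), with lines between roles and between groups. The column of wild type replicate 2 is positive for all 19 enzymes, Sqle is at 1.27 or above in every LKO liver, and Insig2 and Hmgcs1 have their highest values in wild type replicate 3.

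On the log2(signal + 1) scale the esterification genes had narrow spreads, and their groups did not overlap. Soat1, the sterol acyltransferase common in macrophages and other non-hepatocyte cells, had a signal of 2.77, 2.38 and 2.23 in LKO, against 1.04, 1.14 and 0.994 in wild type. These values rest on 21, 16 and 20 estimated reads in LKO, against 8, 9 and 9 in wild type. At so low a signal the added 1 also shrinks the SD of Soat1. Its log2 fold change was 0.75 (SE 0.22), with an interval of 0.25 to 1.24 and an adjusted p of 0.105 in limma, or 0.0335 without the mean-variance trend. Over the limma fits that leave out a library, the adjusted p of Soat1 was 0.193 to 0.222. With a pseudocount of 0.1 the log2 fold change was larger, at 1.14. In every LKO liver the summed signal of Kupffer cell markers, and that of endothelial markers, also exceeded that of every wild type liver, by the values given above, and their part in the Soat1 result was not tested. Soat2, the acyltransferase of hepatocytes and enterocytes, had 19.5, 20.8 and 18.2 in LKO, against 23.3, 25.7 and 22.3 in wild type. With a log2 fold change of -0.27 (SE 0.13), it had an interval of -0.56 to 0.01 and an adjusted p of 0.289 in limma. Per kilobase, Soat2 had 8.84 in LKO and 10.8 in wild type, and Soat1 had 0.294 in LKO and 0.126 in wild type.

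Stard4, a soluble sterol carrier, had a signal of 76.0, 88.7 and 70.0 in LKO, against 68.0, 64.2 and 60.0 in wild type, with a log2 fold change of 0.28 (SE 0.12) and an adjusted p of 0.254 in limma. Mylip, a ubiquitin ligase that sends lipoprotein receptors to degradation, had 4.62, 4.91 and 10.25 in LKO, against 5.73, 6.56 and 7.85 in wild type. LKO replicate 3 was the highest and the other LKO livers the lowest, on 33 to 92 estimated reads in LKO and 44 to 71 in wild type. The log2 fold change of Mylip was -0.09, with an interval of -0.69 to 0.51.

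Single mice differed more in the synthesis enzymes than in most genes. Pooled over both groups, the median within-group SD of the 19 enzymes was 0.43 on the log2(signal + 1) scale, against 0.20 over all tested genes. Over the 6785 tested genes with a mean signal in the range of the enzymes (9.02 to 265) the median was 0.17 and the 90th percentile 0.33, and 15 of 19 enzymes exceeded that percentile. Mvd had the highest SD of the members at 0.83, followed by Insig2 at 0.81, Sqle at 0.79, Fdps at 0.74 and Idi1 at 0.70. Soat1 and Soat2 had the lowest, at 0.089 and 0.098, and the value of Soat1 is understated by the scale at its low signal. Srebf2 had 0.22, close to the median of all genes.

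**Figure D4:**
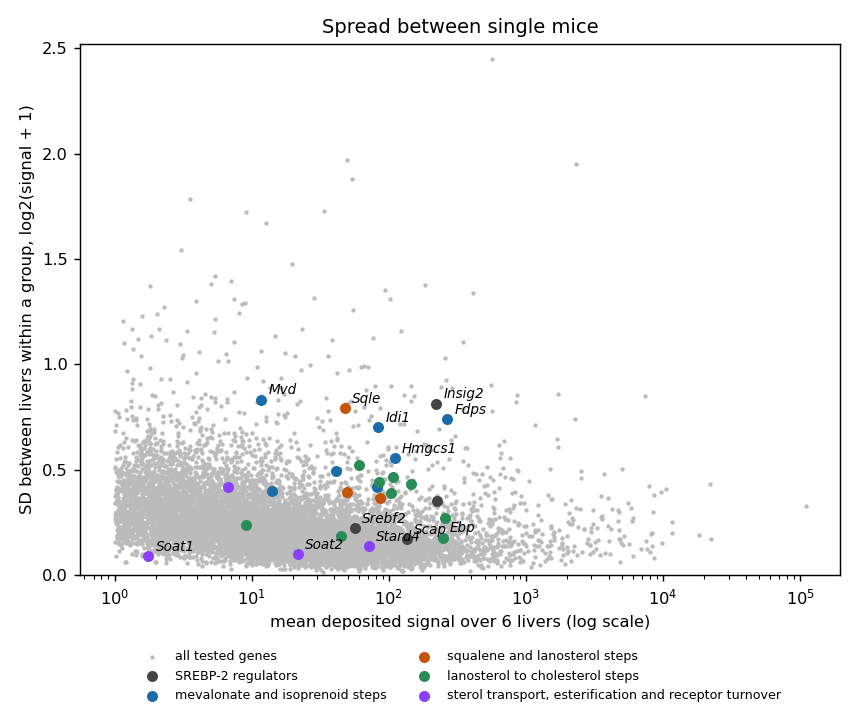
SD between livers within a group on the log2(signal + 1) scale (y axis) against the mean signal over 6 livers (x axis, log scale) for all 11168 tested genes in grey and the 27 members in colour. Mvd, Sqle, Insig2, Fdps and Idi1 lie at 0.70 or above, while Soat1 and Soat2 lie below 0.10. Soat1 has a low mean signal, where this scale understates the spread.

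The enzymes deviated together, and most of all in wild type replicate 2. That liver was the highest of the wild type group in 18 of 19 enzymes, 94.7%, against 34.2% of all tested genes. In 13 of the 19 it exceeded both other wild type livers by more than 1.5-fold, 68.4% against 2.72% of all tested genes. Relative to the wild type mean, the median enzyme stood at 0.61 in wild type replicate 2, at -0.41 in replicate 1 and at -0.20 in replicate 3. In the LKO livers it stood at 0.12, 0.21 and 0.46 in replicates 1, 2 and 3, so all 3 LKO medians lay between those of wild type replicates 2 and 3. Without wild type replicate 2 the pooled SD of the enzymes was 0.27, and the median log2 fold change of the enzymes was 0.58 in place of 0.32. Without wild type replicate 1 that median was 0.11.

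In the same livers, wild type replicate 2 had neither the most nor the fewest estimated reads of the group, at 9432187. Its 10 most abundant genes held 21.02% of its signal, against 18.9% and 19.87% in wild type replicates 1 and 3. Its hepatocyte markers summed to 161752, against 130013.6 and 140834.8 in replicates 1 and 3, and its macrophage markers summed to 91.4, between the others. Most of the hepatocyte sum was Alb, at 121122.3 in replicate 2. Alb, Tat, Apoa1 and Ttr were highest of the wild type livers in replicate 2, Serpina1c was not, and Cps1 was lowest there. Scaled by library size alone, 17 of 19 enzymes were still highest in wild type replicate 2. The part of these measures in the enzyme values was not tested.

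Within LKO the enzymes varied less. The median SD of the 19 enzymes was 0.24 among LKO livers and 0.54 among wild type livers, where all tested genes had 0.185 in LKO and 0.181 in wild type. In 18 of 19 enzymes the wild type spread was the larger, against 48.5% of all tested genes. Between wild type replicates 1 and 3 alone, a pair that leaves out replicate 2, the median SD was 0.17, against 0.149 over all tested genes. An SD of 2 livers cannot be set directly against the LKO value from 3. The difference in spread between the groups was not tested. The enzymes were measured in the same livers and deviated together, so counts over them are not independent observations. LKO replicate 3 was the highest LKO liver in 12 of 19 enzymes, 63.2%, against 30.8% of all tested genes.

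**Figure D5:**
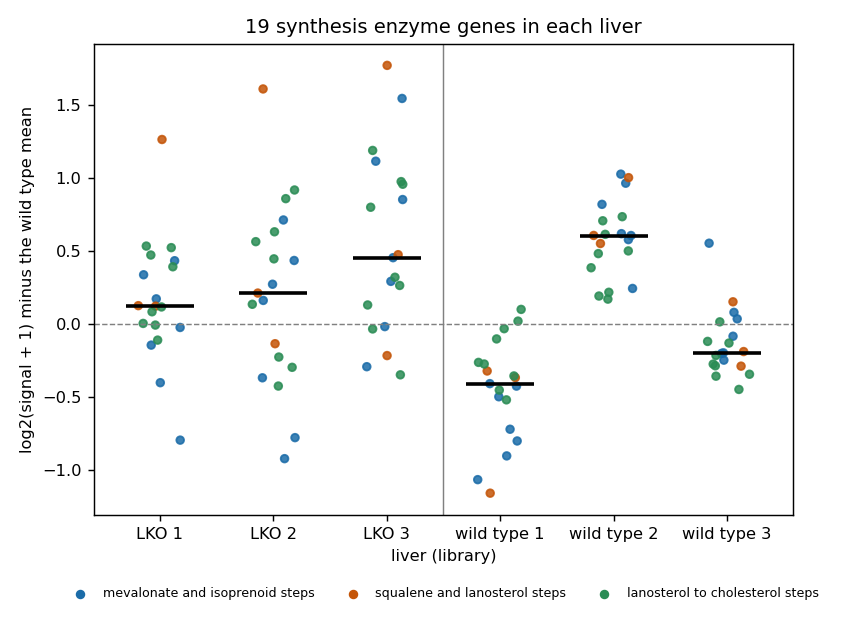
Difference of log2(signal + 1) from the wild type mean for the 19 synthesis enzymes (points, coloured by step) in each of 6 livers (x axis), with the median as a bar. The medians are 0.12, 0.21 and 0.46 in LKO livers and -0.41, 0.61 and -0.20 in wild type livers.

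Genes that process SREBP-2 or branch from the pathway showed little of this. Of 15 genes of SREBP processing and degradation in the endoplasmic reticulum none was raised and none lowered, with a median log2 fold change of -0.01 and a median within-group SD of 0.14. Pgrmc1, a haem-binding partner of the sterol demethylase, had 786.3, 855.9 and 802.4 in LKO, against 1018.7, 1086.2 and 1116.3 in wild type, with an adjusted p of 0.0994 in limma. Vcp, the ATPase that extracts ubiquitinated proteins from the membrane, had a log2 fold change of -0.05. Of 12 genes of the isoprenoid branches none was called, with a median of -0.12 and an SD of 0.15. Among them, Nus1 of dolichol synthesis had -0.11 and Icmt, which methylates prenylated proteins, had -0.05. Wild type replicate 2 was the highest wild type liver in 33.3% of either list.

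Of 12 genes of sterol transport and hydrolysis none was raised and 1 was lowered, against the 1.69% of tested genes named above. That gene was Lipa, the lysosomal acid lipase that frees cholesterol from lipoprotein esters. It had 125.3, 146.2 and 121.3 in LKO, against 172.7, 249.7 and 276.6 in wild type. Lipa had a log2 fold change of -0.80 (SE 0.17) and an adjusted p of 0.0351 in limma. The call was lost without any 1 library except wild type replicate 1, at adjusted p-values up to 0.124, and also without the filter on low values or without the trend. Of the 4 electron donors of sterol oxidation none was called. Wild type replicate 2 was the highest wild type liver in 3 of these 4, 75%. It was the highest in 41.7% of the sterol transport and hydrolysis genes, against 34.2% of all tested genes. Cyb5a, cytochrome b5, had 927.0, 773.0 and 789.3 in LKO, against 945.5, 1191.3 and 982.9 in wild type. Por, the P450 reductase, had 826.6, 1095.8 and 1086.6 in LKO, against 873.1, 969.1 and 419.3 in wild type, where replicate 3 stood alone.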

How the data were processed

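Liver RNA of 3 LKO and 3 wild type mice was sequenced from stranded mRNA libraries. Per the submitters' processing notes, reads were handled with STAR 2.5.1, RSEM 1.2.22 and edgeR on the mm10 build, and with bcl2fastq 2.17, Picard 1.84 and Trimmomatic 0.36, with no order stated. The sources used here name neither the annotation nor the strand setting, so reads of overlapping or antisense genes may be shared. The authors deposited 1 expression signal per gene and library, whose unit they do not name. In each library, 82.04% to 83.11% of positive values were whole multiples (tolerance 0.005 reads) of 1 step, taken as the signal of 1 read, and 3 reads were worth 0.3315 to 0.4466. Count models were not run, since the other values are not whole, and 757 genes at 0 in every library entered no test. The precision of low genes is limited by these read numbers.

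Differences were tested with limma 3.58.1 in R 4.3.3 on log2(signal + 1), with a mean-variance trend, no block and a mean signal of at least 1, with Benjamini-Hochberg adjustment over all tested genes. The code was tested on simulated data. Alternatives changed the scaling, the filter, the pseudocount, the trend, the tool (limma-voom), the replicate block and the libraries included. Members and lists were chosen with earlier results of these data known. Every member is named. The rule asked for the value in every liver for the 4 regulators, the 5 members with the smallest p and the 5 with the largest SD, and most others are given in the same way. From the other lists the text names called genes, or else the 2 with the highest signal. The knocked-out microRNAs were not analysed here, so the genotype labels were not checked. Promoters and microRNAs came from RefSeq (GRCm38.p6) and 3′ untranslated regions from GENCODE M21.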

Additional observations from a re-analysis of the deposited data

How the results depend on the processing

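Of 377 values of single members under the alternatives, 355 kept their direction and their side of the threshold, 9 passed it and 13 turned sign, all of the last when 1 library was left out. Members raised numbered 1 without the trend (Soat1, adjusted p 0.0335) and 0 to 4 over the fits without 1 library, and members lowered numbered 0 to 1. All genes raised numbered 98 and lowered 97 without the trend, and 76 to 277 and 79 to 263 without 1 library. The median log2 fold change was 0.09 to 0.42 over members and 0.11 to 0.58 over enzymes without 1 library, and the median enzyme SD was 0.27 to 0.48. Sign turned for Srebf2 (-0.20 to 0.039), Insig1 (-0.011 to 0.42), Acat2 (-0.47 to 0.049), Mvd (-0.74 to 0.31), Fdft1 (-0.26 to 0.20), Msmo1 (-0.027 to 0.45), Ebp (-0.17 to 0.0018), Sc5d (-0.091 to 0.28) and Mylip (-0.41 to 0.090). The cause was not tested. With the replicate number as a block, 2 members were raised (Sqle, adjusted p 0.0184, and Cyp51, 0.0225), and 217 genes were raised and 199 lowered. Deviations of libraries with the same number correlated at 0.032 to 0.054, too weakly to pair them, although each library correlated best with its own number. The median log2 fold change of all genes was -0.065 with library size scaling and -0.002 as deposited. The order of mice under other scalings, chosen after seeing the data, had 17 to 18 enzymes highest in wild type replicate 2. Low genes such as Soat1 rest on few reads.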
